A study of Saccharomyces cerevisiae with 4 samples.

Results

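Among the 4970 annotated regions counted in these data, 659 were mRNAs that begin closely downstream of another gene on the same strand. They were picked by a rule on position alone, though the rule was set with earlier results of these data known. A region counted as closely downstream when its identifier began with Y, as those of nuclear protein-coding genes do, when it overlapped no region of the other strand, and when its 5′ end lay 0 to 200 nt past the 3′ end of the nearest upstream region of its own strand. A distance of 1 nt means that the member's first base directly follows the last base of its upstream partner. No measured value entered the rule itself. Of the 659 members, 332 lay on the plus strand and 327 on the minus strand, and distances ran from 1 to 200 nt with a median of 135 nt and quartiles of 97 and 165 nt. The distances were unevenly filled, with 61 members at up to 50 nt, 115 at 51 to 100 nt, 247 at 101 to 150 nt and 236 at 151 to 200 nt. The partner was an mRNA for 656 members and an sn/snoRNA for the other 3. For 159 members the partner was itself a member, so that the genes formed 500 runs, of which 373 held 2 genes, 100 held 3, 22 held 4 and 5 held 5.

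RNA synthesis was measured by 4tU-seq, in which a brief pulse of 4-thiouracil puts a thiol group on the RNA then being made, and that RNA is purified and sequenced. The strain was BY4741, a MATa laboratory strain of S. cerevisiae, and the groups were Δsyc1 cells, in which kanMX replaced SYC1 (2 libraries), and wild-type cells (2 libraries). All 4 samples received 5 mM 4-thiouracil for 6 min after growth in YPD at 30 °C from an OD600 of 0.1 to 0.8, and libraries started from 100 ng of RNA. Per the methods the replicates were biological, but the labels do not say whether cultures were separate, so p-values here measure the spread between these libraries only.

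In the compact genome of yeast, the 3′ end of a gene often lies close to the start of the next. RNA polymerase II continues past the poly(A) site until termination, which for mRNAs follows cleavage by CPF and for sn/snoRNAs follows the Nrd1-Nab3-Sen1 route. Syc1 belongs to the APT complex and not to CPF. Where the space between tandem genes is short, the end signals of the upstream gene and the promoter of the downstream gene lie close together or overlap.

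The spaces themselves can be read from the reference genome (RefSeq, R64, the assembly of sacCer3). Of the members called by the thresholds given below, 5 had a space of at most 30 bases. That of BAP3 is 1 base, and the other 4 are shown whole as examples of what so short a space holds. Each is written 5′ to 3′ on the gene strand, from the base after the partner to the base before the member, with runs of at least 4 A or 4 T in capitals. The calls of NRM1, UPS2 and YGL194C-A were lost in 5, 3 and 1 of 12 other fits, and that of ADE3 in 0. NRM1 (after LRO1, plus strand) has chrXIV:642627-642648, ADE3 (after YCH1, plus strand) chrVII:905869-905895, YGL194C-A (after HOS2, minus strand) chrVII:140217-140245, and UPS2 (after APS1, minus strand) chrXII:500296-500325.
LRO1 to NRM1: aagtaggctgcggagagggcca
YCH1 to ADE3: attcaattgaagttgtgagaccaggta
HOS2 to YGL194C-A: gcatcattgttAAAAAtgacatgtattgt
APS1 to UPS2: gaaagaatagatttcagactaagatAAAAt

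A second set is shown because it holds a word found before MET8 and MET10, the 2 members with the highest fold changes, and before another sulfur gene, MET22. The letters CACGTG, the site that the factor Cbf1 binds at sulfur genes and a word that reads the same on both strands, were in the space before 13 of 659 members (1.97%). Of these 13, 4 were called up and 2 down (EMA19 and QCR10), and only the windows of MET8, MET10 and MET22 are given. Windows of 30 bases are given with CACGTG in capitals, at chrII:650147-650176 (plus), chrVI:213051-213080 and chrVI:213069-213098 (plus) and chrXV:207294-207323 (minus). The word starts 140 bases before the 5′ end of MET8, 131 and 113 before that of MET10, and 103 before that of MET22.
NGR1 to MET8: gcgtcataatttCACGTGttataatagcca
PTR3 to MET10, first: gatataccacacCACGTGagcttatagaag
PTR3 to MET10, next: agcttatagaagCACGTGaccacaattcac
CRT10 to MET22: gacgagcaatatCACGTGttgcgattttac

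Total counts were 26089573 and 22880058 in the Δsyc1 libraries and 36175417 and 35203133 in wild-type. The deleted gene SYC1 had 1 and 2 counts against 743 and 794, and LEU2, URA3 and MET17, which BY4741 lacks, had 0 counts in all 4 libraries. Members took 12.8% to 12.9% of the counts in each library, and 655 of the 659 passed the filter on low counts (a mean of at least 30 normalized counts in Δsyc1 or wild-type). The 4 that did not were YGL230C, YPT53, YOR050C and SUE1, each with at most 37 counts in any library. The median tested member had 2414 and 1997 counts in Δsyc1 and 3575 and 3543 in wild-type. Replicates of these members differed by a median of 0.08 (Δsyc1) and 0.05 (wild-type) on the log2 scale.

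Newly made RNA of most of these genes changed little when SYC1 was deleted. By edgeR's quasi-likelihood test (adjusted p under 0.1 over all 4845 genes tested, and over 1.5-fold), 51 of 655 members were called up (7.79%, against 9.08% of all genes) and 32 were called down (4.89%, against 8.15%), 83 in all where 17.2% of all genes were called either way. The other 572 were not called. The median log2 fold change was -0.00 with quartiles of -0.21 and 0.23, beside -0.02 over all genes, and single members ran from -1.47 for MFA2 to 2.45 for MET8. Among genes whose closest upstream neighbour was also on the same strand but over 200 nt away, 115 of 855 were called up (13.5%) and 88 down (10.3%), with a median of 0.03. Among genes with a divergent neighbour upstream, 151 of 1578 were called up and 106 down, with a median of 0.01. No spike-in was used, so each change is relative to the other RNAs of its library, and in bulk samples fewer cells making an RNA cannot be told apart from less RNA made per cell.

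The balance of these calls depended on scaling. With TMM scaling, 51 were up and 32 down (61.4% up). Library totals alone gave 37 up and 63 down (37% up), where 6.36% of all genes were up and 13.5% down, and shifted the median of all genes to -0.17. A fit with a term for gene length gave 52 up and 13 down (80% up), where 10% of all genes were up and 5.59% down. The balance over all genes thus moved in the same direction as that of the members. The 13 down calls left with the length term were all among the 32, namely BAR1, EMA19, GEP5, ILV3, MFA2, MSA2, RCL1, REI1, RRN7, TIM12, TRF5, YIL089W and YOR342C. Called-down members were short and called-up members long, with median lengths of 891 and 1850 nt against 1450 nt for all tested members. Spearman's rho between length and log2 fold change was 0.39 over 655 members and 0.34 over 4845 genes, a description over genes that share the same 4 libraries. The part of length in these calls was not tested beyond that fit.

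Small shifts were common. Without a fold minimum, 227 members were past the adjusted p upward and 213 downward, where the shares of all genes were 33.5% and 35.5%. CPM values of the groups did not overlap for 545 members (83.2%), against 83.7% of all genes. The median size of change was 0.22 for members and 0.24 for all genes on the log2 scale, and the median SE for members was 0.06.

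**Figure D1:**
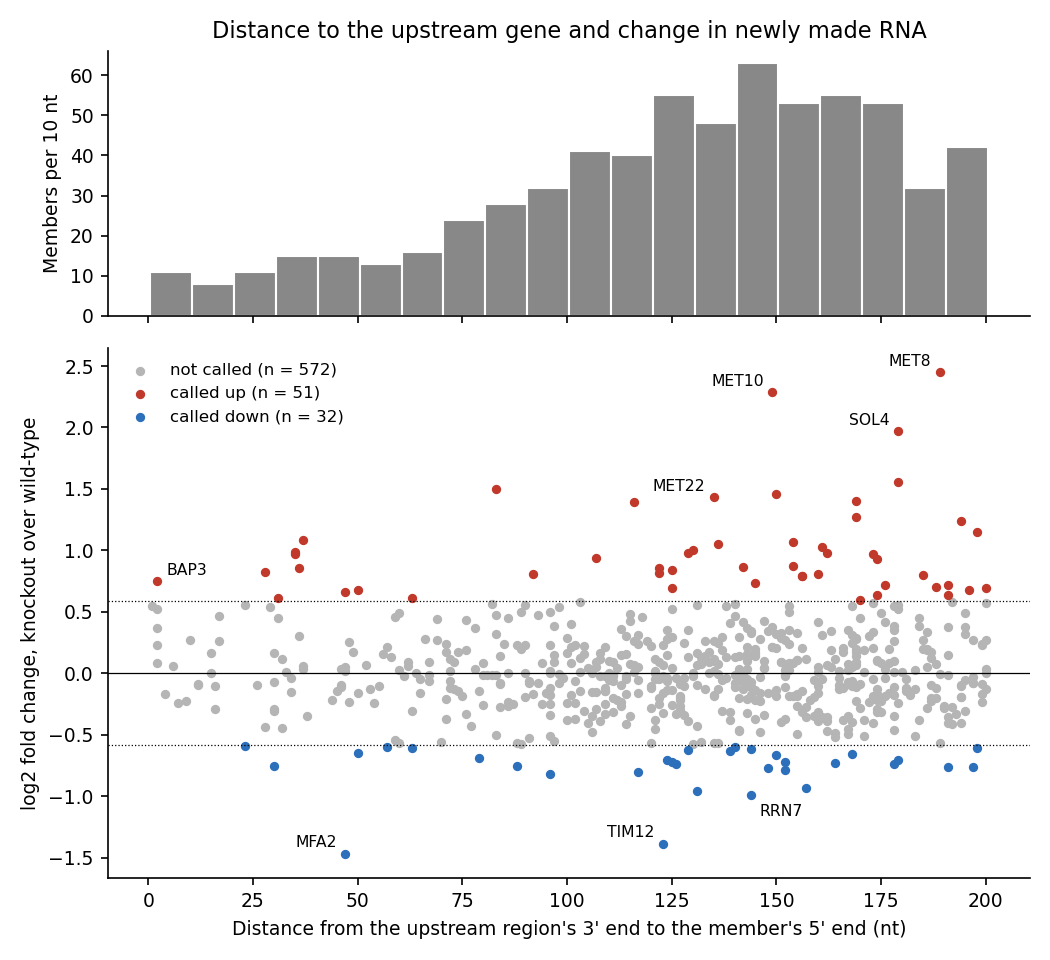
Distance to the upstream gene (x axis, nt) for the 655 tested members, as a histogram in bins of 10 nt (top) and against the log2 fold change of Δsyc1 over wild-type from edgeR (bottom). Dotted lines mark 1.5-fold, red points are the 51 members called up, blue points the 32 called down and grey points the 572 not called, and called members occur from 2 nt (BAP3) to 200 nt.

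Calls were found in every distance class, where 9.08% of all genes were called up and 8.15% down. At up to 50 nt, 9 of 60 tested members were called up (15%) and 4 down (6.67%), with a median log2 fold change of 0.03. At 51 to 100 nt, 3 of 113 were up (2.65%) and 5 down (4.42%, median -0.01). At 101 to 150 nt, 14 of 247 were up (5.67%) and 13 down (5.26%, median -0.01). At 151 to 200 nt, 25 of 235 were up (10.6%) and 10 down (4.26%, median 0.01). The differences between these distance classes were not tested.

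**Figure D2:**
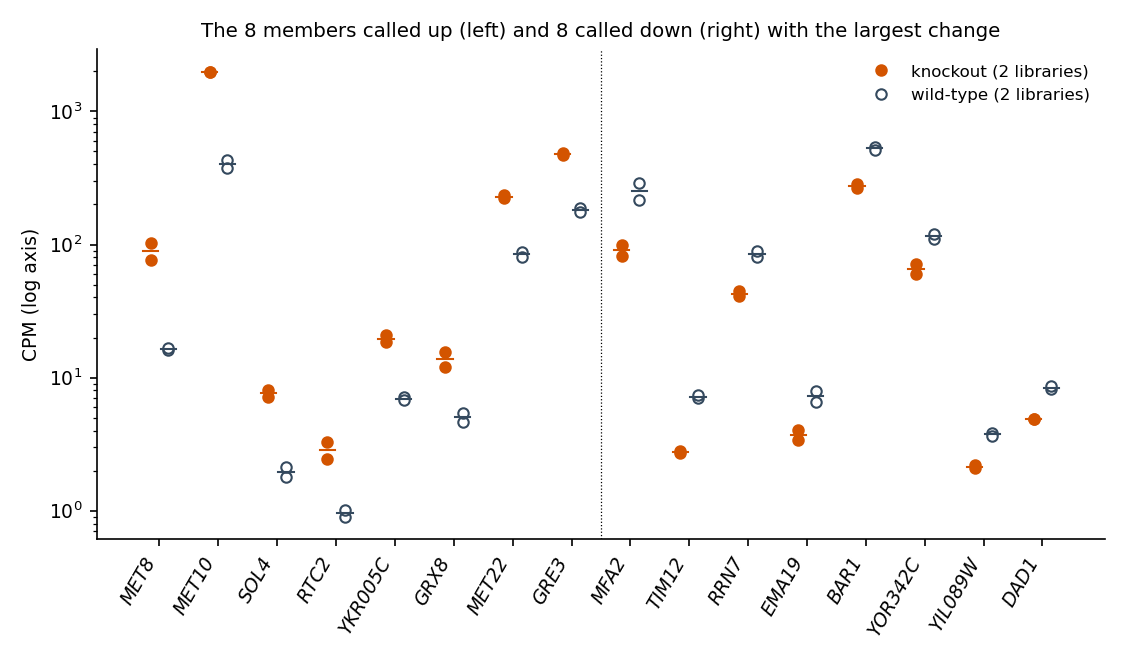
CPM (log axis) of the 8 members called up and the 8 called down with the largest fold change in edgeR. Filled points are the 2 Δsyc1 libraries, open points the 2 wild-type libraries and bars their means. Groups that do not overlap were a condition of choosing these 16 genes.

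The members with the largest rise encode enzymes of sulfur assimilation. MET8, which makes siroheme, the cofactor of sulfite reductase, stood at 103 and 76.0 CPM in Δsyc1 and 16.2 and 16.6 CPM in wild-type. MET10, a subunit of sulfite reductase, stood at 1994 and 1961 CPM against 432 and 379 CPM. Both genes were higher in each Δsyc1 library than in either wild-type library, by 5.47-fold (log2 2.45 ± 0.13 SE, adjusted p = 2.16e-06 by edgeR) and 4.88-fold (2.29 ± 0.08, adjusted p = 2.40e-07). The upstream partners were not called. NGR1, an RNA-binding protein gene whose 3′ end is 189 nt before MET8, had a log2 fold change of 0.07 ± 0.05. PTR3, part of the plasma membrane amino acid sensor and 149 nt before MET10, had 0.15 ± 0.06.

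MET22, whose nucleotidase removes the phosphorylated adenosine left by sulfate reduction, had 223 and 234 CPM in Δsyc1 against 88.1 and 80.8 CPM. It rose 2.71-fold (log2 1.44 ± 0.06, adjusted p = 5.65e-07 by edgeR), while its partner CRT10 135 nt upstream changed by 0.36 ± 0.06 and stayed under 1.5-fold. MET30, an F-box protein that restrains the sulfur activator Met4, had 352.9 and 353 CPM against 184 and 177 CPM and rose by 0.97 ± 0.05 (adjusted p = 1.75e-06 by edgeR). Of 29 tested genes of a list of sulfur assimilation and methionine genes, 23 were called up and 0 down, where 9.08% of all genes were up and 8.15% down. The list was chosen with earlier results of these data known, and its share was not tested. Of the 29 genes, 5 were members. The fifth of these, CYS3 (cystathionine gamma-lyase), had 1985 and 1831 CPM against 1751 and 1758 CPM and was not called (0.12 ± 0.07).

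Beyond sulfur, the other 5 leading rises were in genes of redox and carbon metabolism, a transporter gene and a gene with no assigned function. SOL4, a phosphogluconolactonase of the pentose phosphate path, had 8.13 and 7.15 CPM against 1.79 and 2.12 CPM, a 3.91-fold rise (log2 1.97 ± 0.16, adjusted p = 1.94e-05 by edgeR). GRE3, an aldose reductase induced under stress, had 487.8 and 469 CPM against 187 and 176 CPM, a 2.64-fold rise (1.40 ± 0.06). The glutaredoxin gene GRX8 rose by 1.46 ± 0.15 and YKR005C rose 2.83-fold. RTC2, a vacuolar amino acid transporter, rose by 1.56 ± 0.24, although it rests on 61 and 70 counts against 34 and 38. No partner of these 5 was called. On a list of 30 tested stress genes, 21 were called up and 0 down, where 9.08% of all genes were up and 8.15% down. GRE3 was its 1 member, and this list too was chosen with earlier results known.

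The remaining called-up members lay between 1.51-fold and 2.63-fold and covered many roles. Examples are UBA1, the ubiquitin-activating enzyme, with 2602 and 3049 CPM against 1437 and 1424 CPM (log2 0.98 ± 0.09), and ADE3, a folate enzyme, with 1513 and 1716 CPM against 917 and 911 CPM (0.82 ± 0.07). EFT1, a translation elongation factor gene with a near-identical copy, rose by 0.97 ± 0.11, but 84.2% of its 50-mers occur elsewhere in the genome. Alignments of low mapping quality were filtered out, so its counts may rest on a small part of its sequence. In all 3 genes both Δsyc1 libraries were above both wild-type libraries.

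The largest falls included genes of mating type a cells. MFA2, which encodes the a-factor pheromone, had 99.9 and 82.4 CPM in Δsyc1 and 215 and 290.1 CPM in wild-type. BAR1, the secreted protease that degrades alpha factor, had 284 and 268 CPM against 543 and 510.1 CPM. The Δsyc1 libraries were below wild-type in both genes, by 2.76-fold for MFA2 (log2 -1.47 ± 0.14, adjusted p = 4.79e-05 by edgeR) and 1.91-fold for BAR1 (-0.93 ± 0.06, adjusted p = 4.15e-06). Their partners YNL146W (47 nt before MFA2) and SNL1 (157 nt before BAR1) had -0.25 ± 0.16 and -0.45 ± 0.09 and were not called. STE2, the alpha-factor receptor gene and no member, moved the same way in raw counts, with 7825 and 6146 against 27882 and 26978. These counts are not scaled for the larger totals of the wild-type libraries, so their ratio overstates the fall.

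Other falls were in genes of mitochondria, rRNA transcription and mitosis. TIM12, of the mitochondrial inner membrane import machinery, had 2.79 and 2.71 CPM against 7.02 and 7.37 CPM and fell by 1.38 ± 0.14 on the log2 scale. RRN7, a core factor of RNA polymerase I, had 44.4 and 41.1 CPM against 80.0 and 89.8 CPM and fell by 0.99 ± 0.08 (adjusted p = 1.64e-05 by edgeR). DAD1, a subunit of the kinetochore DASH ring, had 4.86 and 4.86 CPM against 8.15 and 8.65 CPM and fell by 0.79 ± 0.12. In these 3 genes the groups did not overlap, which was a condition of naming them. With the term for gene length DAD1 was no longer called (-0.46), while MFA2, BAR1, TIM12 and RRN7 still were. EMA19, YOR342C and YIL089W fell by 0.96 ± 0.16, 0.82 ± 0.09 and 0.80 ± 0.17. COX8, COX5A and QCR10, subunits of the respiratory chain picked as examples after values were seen, had -0.76 ± 0.09, -0.67 ± 0.06 and -0.73 ± 0.11, and with the length term 0 of these 3 were called.

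Lists of other genes, also chosen with earlier results known, contributed few called members. Over all genes 9.08% were called up and 8.15% down. Of the 3 members on a list of 24 tested 3′-end processing and termination genes, FIP1, a CPF subunit, had -0.23, SSU72, a phosphatase of CPF and APT, had -0.06 and CLP1, a cleavage factor subunit, had -0.02 as log2 fold change, and 0 of 3 were called. Of all 24, 4 were called up and 0 down. A list of 131 genes drawn by the symbols of cytosolic ribosomal proteins held 7 members, with 0 called, beside 3 up and 40 down over the 131. By its symbol the list also took in RPP1 (-0.38), which encodes a subunit of RNase P. The other 6 members ran from -0.35 (RPL1A, of whose 50-mers 69.6% are repeated) to -0.04 (RPS30A). The 12 members among 63 mitochondrial ribosomal protein genes had 1 call, MRPL37 (-0.59 ± 0.12), beside 0 up and 4 down over the 63. That call lies just past 1.5-fold and was lost in 4 of 12 other fits, with DESeq2, DESeq2 size factors, the length term and without wild-type replicate 2.

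Whether a member moved with the gene just upstream was asked directly. For each of 644 pairs with both genes past the filter, the log2 ratio of member to partner counts was compared between Δsyc1 and wild-type with limma, fitted over all 4618 same-strand neighbour pairs, which also cancels library scaling. The ratio was called up (adjusted p under 0.1 and over 1.5-fold) in 91 pairs (14.1%, against 15.4% of all same-strand pairs) and down in 82 (12.7%, against 16.4%), together 173 pairs (26.9%, against 31.8%). A further 836 pairs were over 200 nt apart, with no other-strand overlap of the downstream gene and no closer upstream neighbour on either strand. Of these, 155 were up and 164 down (38.2% together). Below, pairs over 200 nt apart means these 836. The median change of the ratio was -0.01 for members and -0.02 for pairs over 200 nt apart, on the log2 scale, and the median SE for member pairs was 0.10. Of the 644 pairs, 276 share a gene with another such pair and are not independent.

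Calls of members were also counted by the call of the partner, beside 7.79% up and 4.89% down over all tested members. Where the partner was called up, 3 of 53 members were called up (5.66%) and 1 down (1.89%), with a median log2 fold change of 0.03 over these members. Where the partner was called down, 3 of 49 were called up (6.12%) and 3 down (6.12%, median -0.04). Where it was not called, 40 of 542 were up (7.38%) and 28 down (5.17%, median -0.01). Across the 644 pairs, Pearson's r between the log2 fold changes of member and partner was 0.09 and Spearman's rho 0.11. For pairs over 200 nt apart r was 0.07, over all 4618 same-strand pairs it was 0.05, and for differences between the 2 Δsyc1 replicates of the member pairs it was 0.06. All these values describe pairs that share the same 4 libraries and carry no test.

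**Figure D3:**
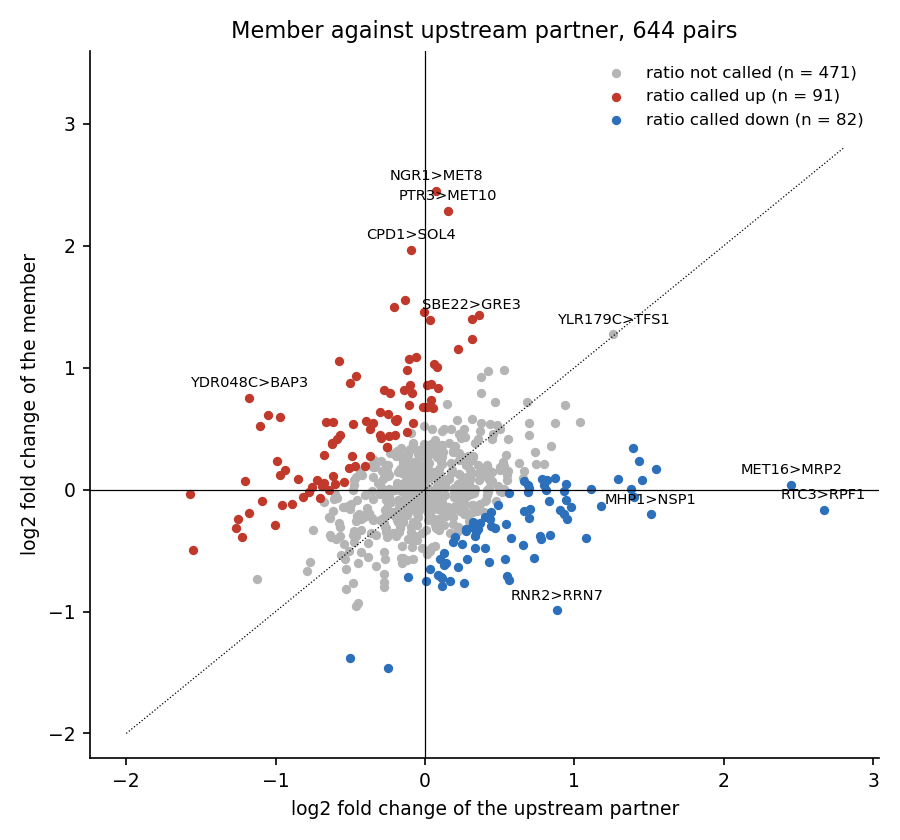
Log2 fold change (Δsyc1 over wild-type, edgeR) of the upstream partner (x axis) and of the member (y axis) for 644 pairs. Colours give the limma call on the member to partner ratio (91 up in red, 82 down in blue, 471 not called in grey), the dotted diagonal marks equal change, and MET8 and MET10 lie near the vertical axis, RTC3 with RPF1 near the horizontal axis, and YLR179C with TFS1 on the diagonal.

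The pairs in which both genes were called can be named. In 3 of them both rose. TFS1, an inhibitor of carboxypeptidase Y, had 17.6 and 18.3 CPM against 7.78 and 7.05 CPM (log2 1.28 ± 0.10) and lay 169 nt after YLR179C (1.26). FIT2, a cell wall protein of iron uptake, rose by 0.70 ± 0.09 and its partner YOR381W-A by 0.94. RFS1 rose by 0.71 ± 0.08 and YBR053C by 0.68. In these 3 pairs the change of the ratio was between -0.24 and 0.03 and was not called. In 3 further pairs both fell, namely MSG5 and COX5A (-0.79 and -0.67), REI1 and MRPL37 (-0.77 and -0.59), and TOS6 and TRF5 (-1.12 and -0.74). The partner rose and the member fell in 1 pair, RNR2 (0.89) and RRN7 (-0.99). The partner fell and the member rose in 3 pairs, the bud neck gene NIS1 (-1.05) with the chaperone gene APJ1 (0.61), RPS21A (-0.97) with the glycogenin gene GLG1 (0.60), and YDR048C (-1.18) with BAP3 (0.75). Among these members, the calls of GLG1, MRPL37, APJ1, COX5A, RFS1 and FIT2 were lost in 4, 4, 2, 1, 1 and 1 of 12 other fits, and those of TFS1, TRF5, RRN7 and BAP3 in 0.

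**Figure D4:**
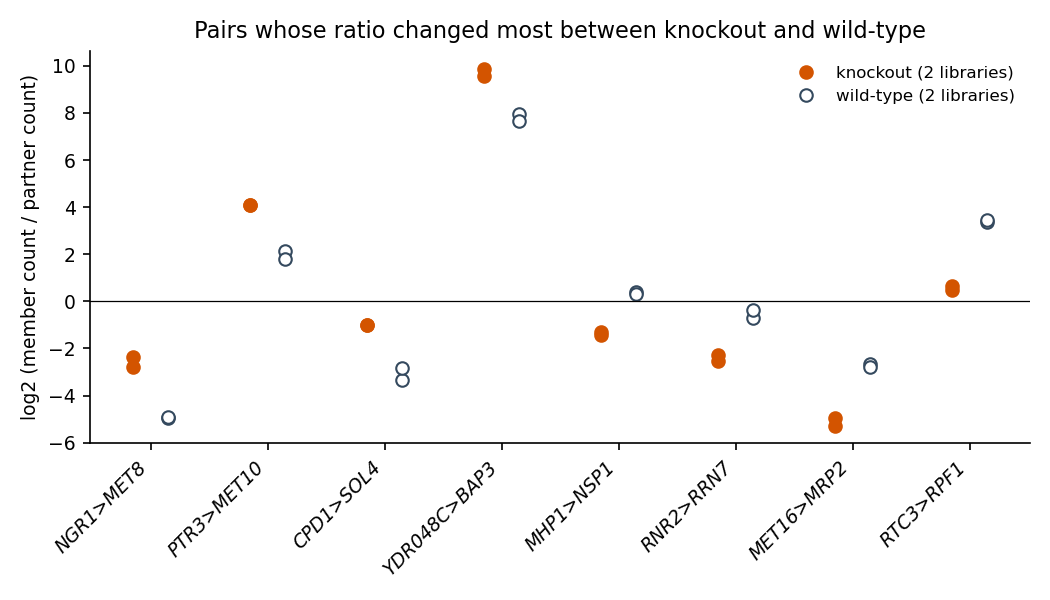
Log2 ratio of member count to partner count in each library for the 4 pairs with the largest called rise and the 4 with the largest called fall of the ratio. Filled points are the 2 Δsyc1 libraries and open points the 2 wild-type libraries. Ratios are of counts and not per length, so they compare libraries within a pair, and in all 8 pairs the groups do not overlap.

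The pairs whose ratio fell most were ones in which the upstream gene rose and the member stayed behind. RTC3 rose from 8.99 and 8.31 CPM in wild-type to 57.8 and 52.2 CPM in Δsyc1. RPF1, a nucleolar protein of large-subunit assembly that begins 114 nt further on, had 92.9 and 91.2 CPM in wild-type and 90.8 and 73.2 CPM in Δsyc1. The wild-type libraries of RPF1 were slightly above those of Δsyc1, its log2 fold change of -0.17 ± 0.09 was not called, and the ratio fell by 2.84 ± 0.11 on the log2 scale (adjusted p = 8.40e-10 by limma).

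MET16, the reductase of activated sulfate, rose from 68.4 and 65.0 CPM to 400.1 and 330.1 CPM. MRP2, a mitochondrial ribosomal protein gene 125 nt past it, had 10.8 and 9.40 CPM in wild-type and 10.3 and 10.5 CPM in Δsyc1, which overlap. The ratio fell by 2.40 ± 0.15. MHP1, a microtubule-associated protein gene, rose by 1.51 ± 0.07, while NSP1, a nuclear pore protein gene 127 nt further on, had 436 and 443 CPM in Δsyc1 and 503 and 507 CPM in wild-type and changed by -0.20 ± 0.05. That ratio fell by 1.71 ± 0.08.

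For RNR2, the small subunit of ribonucleotide reductase, and RRN7 the ratio fell by 1.87 ± 0.12 with both genes called. RNR2 had 213 and 236 CPM in Δsyc1 and 128 and 114 CPM in wild-type, so the upstream gene was higher and the member 144 nt downstream lower in Δsyc1.

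The largest rises of the ratio were those of MET8 over NGR1 (2.36 ± 0.13), MET10 over PTR3 (2.13 ± 0.10), SOL4 over CPD1 (2.05 ± 0.20) and BAP3 over YDR048C (1.91 ± 0.22). In the first 3 the partner was not called. YDR048C rests on few counts, 33 and 36 in Δsyc1 and 119 and 134 in wild-type, and as annotated it fills the interval from TPI1 to BAP3.

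Over all same-strand pairs, the ratio was called up in 15.4% and down in 16.4%. By distance, it was called up in 15 (25.9%) and down in 5 (8.62%) of 58 pairs at up to 50 nt, with a median change of 0.13. At 51 to 100 nt, 13 of 111 were up (11.7%) and 16 down (14.4%, median -0.04). At 101 to 150 nt, 26 of 243 were up (10.7%) and 37 down (15.2%, median -0.03). At 151 to 200 nt, 37 of 232 were up (15.9%) and 24 down (10.3%, median 0.00). Taken at up to 100 nt together, the median was 0.05. The difference between these classes was not tested.

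The 6 members that begin 1 or 2 nt past their partner have the shortest spaces in the annotation. For BAP3 and FUN12 the partner is a region of few counts that fills the interval from the next gene upstream. YDR048C (4982 nt, 1.32 and 1.68 CPM in Δsyc1, 3.14 and 3.59 CPM in wild-type) begins 1 nt after TPI1. YAL037W (2947 nt, 4.22 and 4.58 CPM against 8.12 and 7.72 CPM) begins 2 nt after CDC19. Both spaces are thus set by how these regions were annotated. GIP3, a Glc7-interacting protein gene 1 nt after YPL135C-A, had 645 and 690.1 CPM against 457 and 458 CPM (log2 0.54 ± 0.06, just under 1.5-fold). The amino acid permease gene BAP3, 2 nt after YDR048C, had 1261 and 1299.8 CPM against 781 and 738 CPM and was the 1 called member of the 6 (0.75 ± 0.06, adjusted p = 1.77e-05 by edgeR). The Δsyc1 libraries of both genes were above those of wild-type.

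ILV6, the regulatory subunit of acetolactate synthase 2 nt after STP22, had 110 and 133 CPM against 86.6 and 81.6 CPM (0.53 ± 0.09). UBX2, a gene of protein degradation at the endoplasmic reticulum 2 nt after TRM9, had 166 and 174 CPM against 133 and 131 CPM (0.37 ± 0.05), while TRM9, a tRNA methyltransferase gene, fell by 0.63 ± 0.09. FUN12, a translation initiation factor gene 2 nt after YAL037W, had 1200.5 and 1286 CPM against 1169 and 1173 CPM (0.09 ± 0.06, not past the adjusted p). TSA1, a peroxiredoxin gene tied at 2 nt after USA1 and named after its values were seen, had 1732 and 1678 CPM against 1498 and 1410.1 CPM (0.23 ± 0.06). In all 6 the Δsyc1 libraries were the higher, though for FUN12 by less than the spread of its Δsyc1 replicates. Over all genes the groups did not overlap, in either direction, for 83.7%, and 33.5% were past the adjusted p upward. Whether these 6 differ from other genes was not tested. The sign for FUN12 turned under other scalings (-0.07 with library totals alone, and -0.07 with the length term).

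At the other edge of the rule, 6 tested members lay at exactly 200 nt, with log2 fold changes from -0.13 to 0.70. DUT1, the dUTPase gene, had 24.2 and 24.1 CPM against 24.7 and 28.1 CPM, and SIP2, a Snf1 kinase subunit gene, 43.0 and 42.3 CPM against 34.8 and 35.7 CPM. Just outside, at 201 nt, YPQ2 had 110.3 and 105 CPM against 98.6 and 94.8 CPM and SLD2, a replication initiation gene, 44.3 and 37.3 CPM against 59.5 and 61.9 CPM. None of these 4 was called.

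The 3 members behind an sn/snoRNA differed among themselves. The C/D snoRNA snR13 had 306 and 288 counts in Δsyc1 against 1388 and 1438 in wild-type, a change of -1.55 ± 0.09 on the log2 scale. TRS31, a TRAPP subunit gene 167 nt past it, had 99.0 and 95.7 CPM in Δsyc1 and 138 and 136 CPM in wild-type. It moved in the same direction (-0.49 ± 0.05, adjusted p = 9.97e-05 by edgeR) but stayed under 1.5-fold, and the ratio of TRS31 to snR13 rose by 1.06 ± 0.12 on the log2 scale.

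For snR161, with 16 and 15 counts against 65 and 85 (-1.57 ± 0.28), the member PDX3, an oxidase of pyridoxal phosphate synthesis 126 nt further on, had 47.8 and 48.7 CPM in Δsyc1 and 49.8 and 49.2 CPM in wild-type. These values of PDX3 were within 0.04 ± 0.06 of each other on the log2 scale. snR64, with 8 and 2 counts against 16 and 30, was under the filter, and UBA1 129 nt past it was among the members called up.

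**Figure D5:**
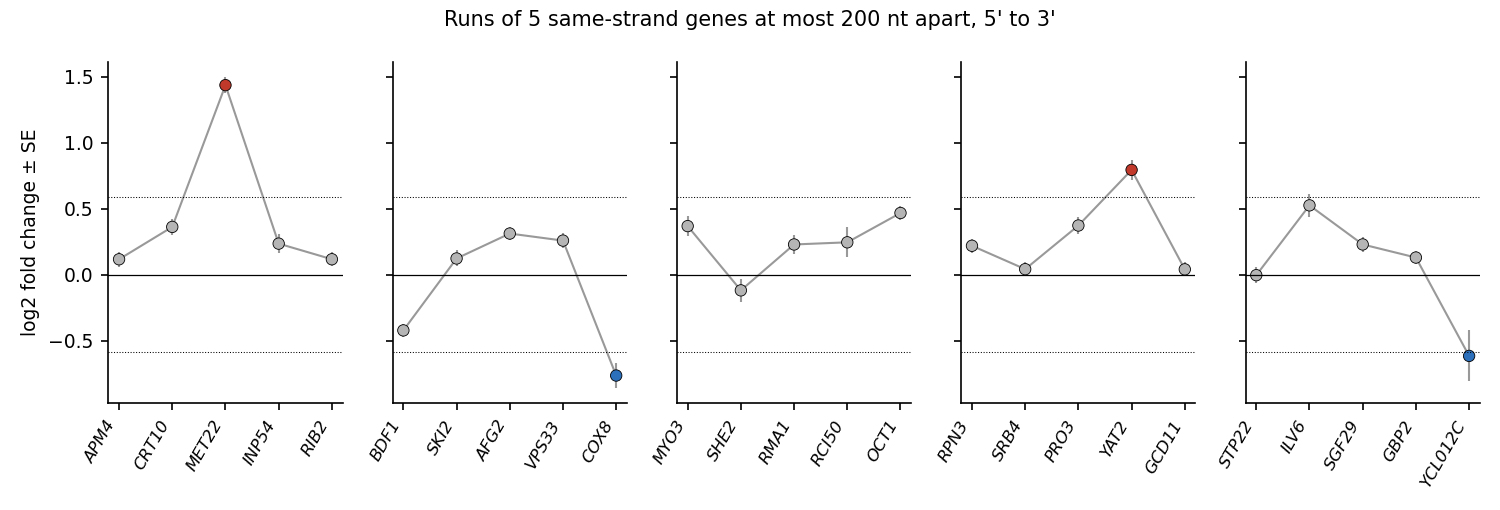
Log2 fold change ± SE (edgeR, Δsyc1 over wild-type) of each gene in the 5 runs of 5 same-strand genes spaced by at most 200 nt, in the order of transcription. Red points were called up, blue points called down and grey points not called, dotted lines mark 1.5-fold, and each run holds at most 1 called gene.

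In the 5 longest runs, where 4 members follow each other, the called genes were MET22, COX8, YAT2 and YCL012C, at most 1 per run. Such a rate is near the 17.2% of all genes that were called. MET22 (1.44 ± 0.06) is the third gene of APM4, CRT10, MET22, INP54 and RIB2, and the other 4 had log2 fold changes between 0.12 and 0.36. INP54, 85 nt past MET22, had 45.4 and 49.9 CPM against 40.9 and 39.9 CPM (0.24 ± 0.07). RIB2, only 32 nt past INP54, had 134 and 133 CPM against 122 and 124 CPM (0.12 ± 0.05).

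COX8, a cytochrome c oxidase subunit, closes the run BDF1, SKI2, AFG2, VPS33 and COX8 and was its 1 called gene, with 18.7 and 16.1 CPM against 30.0 and 29.2 CPM. The gene before it, VPS33, had a log2 fold change of 0.26 ± 0.05. YAT2, a carnitine acetyltransferase, is the fourth gene of RPN3, SRB4, PRO3, YAT2 and GCD11 and rose by 0.79 ± 0.07, while GCD11 112 nt further on had 0.04 ± 0.05. YCL012C ends the run of STP22, ILV6, SGF29 and GBP2 and fell by 0.61 ± 0.19 at 6.26 and 4.11 CPM against 8.81 and 7.23 CPM, a call lost in 3 of 12 other fits. The call of COX8 was lost with the length term. In MYO3, SHE2, RMA1, RCI50 and OCT1, 0 of 5 genes were called, with values from -0.12 (SHE2) to 0.47 (OCT1). Some runs of 4 genes held more than 1 call. LAP3 (0.69) and YTP1 (1.39) were both called up in the same run. AGA1 (-0.97) was called down and FPK1 (0.86) up in another.

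Levels per length did not separate members from partners. The median log2 ratio of member to partner counts per kilobase was 0.14 and 0.07 in Δsyc1 and 0.08 and 0.08 in wild-type over 644 pairs, and 0.05, 0.14, 0.09 and 0.12 over 836 pairs more than 200 nt apart. In wild-type replicate 1 the quartiles of the member pairs were -1.08 and 1.26 on this scale.

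The words in the spaces were tallied after values were seen. CACGTG was taken up because it stands before MET8, MET10 and MET22, so their calls are no support for it. Of all tested members, 7.79% were called up and 4.89% down. Among the 13 members with CACGTG in the space, 4 were called up (MET8, MET10, MET22 and VHS3) and 2 down (EMA19 at -0.96 and QCR10). VHS3, at 0.64 ± 0.05, was not called with library totals alone or the length term. The median log2 fold change of the 13 was 0.15. The 7 of the 13 that were not called ran from -0.24 (CSL4) to 0.56 (REB1). In the 200 bases before the 5′ end, CACGTG stood before 23 members (3.49%) and before 153 of 4909 mRNAs (3.12%), of which 151 were tested with 25 up and 8 down. AGGGG, the core of the stress response element, searched on both strands, stood there before 91 members (13.8%) and 790 mRNAs (16.1%), and 18 of the 91 members were called up and 3 down, beside 170 up and 33 down of 770 tested mRNAs. TATAAA on either strand stood before 287 members (43.6%) and 1760 mRNAs (35.9%). For members these 200 bases reach into the partner. The space itself held AGGGG before 75 members (11.4%) and TATAAA before 131 (19.9%). A match describes the sequence only.

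At the ends of the upstream genes the sequences were much alike near and far. TATATA is the efficiency element of yeast poly(A) sites and reads the same on both strands. It was in the last 100 bases of 304 partners of members (46.1%). For the 871 mRNAs whose closest upstream neighbour was on the same strand but over 200 nt away, it was in those of 362 partners (41.6%). AATAAA on the gene strand was in 109 (16.5%) and 162 (18.6%) of them. The spaces had a median A and T content of 65.4%, the 200 bases before members 66.5% and those before all mRNAs 64.5%.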

How the data were processed

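The authors aligned paired-end reads to sacCer3 with STAR 2.3.0, filtered alignments by mapping quality and proper pairing (SAMtools), and obtained a count per region from HTSeq. The deposited table holds raw counts for 4970 regions. Strand use in counting, and how fragments that span a partner and a member were treated, are not given in the sources used here. A deposited table of the authors' own DESeq2 comparison (mean normalized counts, log2 fold changes, standard errors, Wald scores and p-values) was not used.

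Members and partners came from the deposited annotation, and symbols and sequences from RefSeq R64, in which 4886 identifiers matched. Genes with a mean normalized count of at least 30 in either group were tested (4845) with edgeR 4.0.16 in R 4.3.3 (TMM, quasi-likelihood, group as the only term, Benjamini-Hochberg over all genes, call at adjusted p under 0.1 and over 1.5-fold). Pair ratios (pseudocount 0.5) were tested with limma 3.58.1. CPM are TMM-scaled, and SEs are the log2 fold change over the square root of F. The fits were tested on simulated data. Figures used matplotlib 3.10.9. Alternatives covered scaling, DESeq2 1.42.0, filters, distance limits, gene length, repeats, pairing and each library left out. The named genes are SYC1, the 8 members called up and 8 called down with the largest change and no overlap, the 5 shortest distances, the 4 largest rises and 4 largest falls of the pair ratio, and 2 regions on each side of 200 nt. Other genes were named as examples of a list, run or pair class after values were seen. Members and lists were chosen with earlier results of these data known.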

Additional observations from a re-analysis of the deposited data

How the results depend on the processing

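Depth limits the weakest values, such as those of RTC2 and YDR048C, and 2 libraries per group limit all p-values. Of the 32 members called down, 13 were left with the length term, while library totals alone gave 63 and no fold minimum gave 213. At 0 to 100 nt, 9 of 173 were down and 12 up, beside 8.15% and 9.08% of all genes. Without a fold minimum 227 were up in place of 51, beside 33.5% of all genes. The median log2 fold change of members was 0.01 with the length term and -0.16 with library totals alone. Pairs called changed from 173 of 644 to 434 of 644 without a fold minimum, where 69.9% of all same-strand pairs were called. At 0 to 100 nt, 49 of 169 pairs were called, beside 31.8% of all same-strand pairs, and the median ratio change was 0.0523. Pearson's r of 0.09 became 0.0746 with no filter, 0.0613 at 0 to 100 nt and 0.1039 at 0 to 300 nt. With each library left out in turn, 30 to 41 members were down and 52 to 61 up, the median was -0.0238 to 0.0039, 156 to 199 pairs were called, their median was -0.0177 to -0.0017, and r was 0.077 to 0.1006. FUN12 turned to -0.0738 with the length term and to -0.0668 with library totals alone, DUT1 to 0.15 with the length term, and MRP2 to -0.11 with library totals alone and to -0.0573 without wild-type replicate 2. None of these 3 genes was called. DAD1 lost its call with the length term. For the named genes, 305 other values kept both sign and call and 7 gained a call, and for their pair ratios 193 kept both, 2 gained a call and 2 lost it. With the replicate number as a block, 32 members were down, 51 up and 173 pairs called, as without it. Same-numbered libraries deviated with a correlation of -0.18. With 2 libraries per group, those with different numbers must then give 0.18, so this value cannot tell whether the numbers pair them. The crossed pairing, tried after the data were seen, gave 32, 51 and 173 as well. With mRNA partners only, also tried after the data were seen, the counts were 32, 50 and 171, and without members whose space holds another RefSeq gene they were 32, 51 and 173.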
